A study of Mus musculus with 4 samples.

Results

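The stretch described here is a 5.19 Mb piece of mouse chromosome 9 (mm10, chr9:32940153-38126591) in which peaks of open chromatin ranked higher in embryonic stem cells lacking Hox function than in wild-type cells. Its members are the merged peak regions that touch this interval, 377 of 208141 in all, and 213 of them had a listed peak in each of the 4 libraries. The interval had been chosen from the ranks of these same libraries, so every difference between the genotypes inside it is a description and carries no test. The 2 Mb before it held 300 merged regions and the 2 Mb after it 59, and these served as the reference.

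The study profiled open chromatin by ATAC-seq, in which a transposase inserts sequencing adapters into accessible DNA, in wt mouse embryonic stem (mES) cells and in mES cells whose genotype is given as Hox-/-. The Hox-/- libraries are titled BADC, which the labels do not spell out, and the title of the series describes cells without any Hox function. Both genotypes were grown with LIF, serum, the GSK-3 inhibitor CHIR99021 and the MEK inhibitor PD0325901, and 2 libraries were made per genotype. The labels do not say whether the 2 libraries of a genotype are separate cultures or clones, so the spread between them may be technical, and the deletions cannot be told apart from any other difference between the lines.

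An ATAC-seq peak marks DNA that is not wrapped tightly by nucleosomes, most often a promoter or a distal regulatory element. Peaks at promoters of broadly used genes are usually strong and shared by many cell types, whereas distal peaks vary more between cell types. Genes for sperm proteins and olfactory receptors, both frequent in this stretch, lie in clusters that are normally silent in stem cells.

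The 5 promoters below belong to the genes with the strongest peaks of the stretch (Stt3a, Tmem218, Srpr and Tbrg1) and to 1 gene (Robo4) whose peak did not separate the genotypes by −log10 p, although it did by the implied pileup described later. Each line holds the 250 bases before the start site from RefSeq (GRCm38.p6), 5′ to 3′ on the strand of the gene, and each lies wholly inside a merged region. RefSeq gives Tmem218 a further start site, whose overlapping window (chr9:37208066-37208315) held 1 GGGCGG, 3 CCAAT and 8 CpG dinucleotides, and the window of the outermost start is shown. Capitals mark the GC box GGGCGG, the box named CCAAT and the site TGACAG of MEIS and PKNOX factors on either strand, found without overlap between them.
Stt3a, chr9:36767623-36767872, minus strand: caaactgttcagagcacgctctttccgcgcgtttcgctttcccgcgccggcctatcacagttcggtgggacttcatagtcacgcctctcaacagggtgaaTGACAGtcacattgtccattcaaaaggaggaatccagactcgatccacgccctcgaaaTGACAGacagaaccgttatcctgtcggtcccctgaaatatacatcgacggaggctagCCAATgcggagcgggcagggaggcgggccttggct
Tmem218, chr9:37207973-37208222, plus strand: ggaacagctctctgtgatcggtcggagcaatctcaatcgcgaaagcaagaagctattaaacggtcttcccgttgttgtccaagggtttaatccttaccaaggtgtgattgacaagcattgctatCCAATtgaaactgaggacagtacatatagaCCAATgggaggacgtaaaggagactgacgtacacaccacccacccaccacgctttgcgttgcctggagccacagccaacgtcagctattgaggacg
Srpr, chr9:35210953-35211202, plus strand: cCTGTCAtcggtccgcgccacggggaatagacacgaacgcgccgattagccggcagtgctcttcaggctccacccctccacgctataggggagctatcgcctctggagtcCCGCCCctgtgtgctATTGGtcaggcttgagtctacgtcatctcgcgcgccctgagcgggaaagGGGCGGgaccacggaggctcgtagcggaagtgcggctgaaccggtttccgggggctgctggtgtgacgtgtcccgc
Tbrg1, chr9:37657313-37657562, minus strand: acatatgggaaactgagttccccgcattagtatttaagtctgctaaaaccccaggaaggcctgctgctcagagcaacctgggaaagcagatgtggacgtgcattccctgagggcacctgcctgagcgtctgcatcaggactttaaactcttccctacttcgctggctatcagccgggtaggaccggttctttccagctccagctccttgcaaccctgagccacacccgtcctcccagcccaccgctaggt
Robo4, chr9:37401722-37401971, plus strand: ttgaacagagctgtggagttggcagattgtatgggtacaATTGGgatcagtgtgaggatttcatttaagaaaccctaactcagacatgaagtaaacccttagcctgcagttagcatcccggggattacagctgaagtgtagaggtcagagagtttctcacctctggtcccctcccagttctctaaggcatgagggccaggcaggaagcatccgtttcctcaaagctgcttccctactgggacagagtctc

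The Srpr window held 26 CpG dinucleotides, the Stt3a window 20, the Tmem218 window 12, the Tbrg1 window 8 and the Robo4 window 2. The 4 promoters with the strongest peaks did not share a motif, since Tbrg1 held none of those searched. The RefSeq table held 82 such windows in the stretch, of 70 genes, and 31 windows, of 26 genes, overlapped a region called in all 4 libraries. GGGCGG was present in 61.3% of these 31 windows, in 1.96% of the other 51 and in 32.7% of all 32851 mouse windows of the same length. Over all 82 windows of the stretch it was present in 24.4%. The 31 windows were picked for overlapping a peak, and the mouse windows were not. CCAAT was present in 48.4% of the 31 windows, in 31.4% of the 51 and in 33.8% of all, and TGACAG in 9.68%, 11.8% and 15.9%. TGATTNAT, a form of the PBX-HOX site, was present in 0 of the 31 windows, in 3 of the 51 and in 2.82% of all. CCGGAAG was present in 9.68% of the 31 windows and 6.91% of all, CACGTG in 16.1% and 6.02%, TATAAA in 3.23% and 12.4%, and ATGCAAAT in 0 of 31 and 1.60%. The median number of CpG dinucleotides was 17 in the 31 windows, 1 in the 51 and 6 in all.

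The peak lists held 213705 and 216795 lines in the wt libraries and 191704 and 200214 in the Hox-/- libraries. Summits between the outermost genes of the Hox clusters numbered 178 and 181 in wt against 2 and 1 in Hox-/-, as the labelled genotypes imply. Summits on the Y chromosome numbered 63 and 63 against 4 and 6, and the part of this in the results below was not tested. All 7 stem cell markers were marked by a peak near an end (1 kb or less) in every library, as were 4 of 5 fibroblast markers, 2 of 3 endoderm markers and 2 or 3 of 3 trophoblast markers, so peaks at gene ends did not tell these cell types apart.

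Within the stretch, both Hox-/- libraries called more peaks than both wt libraries, although their lists were shorter. A listed summit fell in the stretch 348 and 362 times in wt and 390 and 406 times in Hox-/-. Of the 377 regions, wt replicate 1 called 69.5% (exact 95% binomial interval 64.6 to 74.1%), wt replicate 2 71.9% (67.1 to 76.4%), Hox-/- replicate 1 79.3% (74.9 to 83.3%) and Hox-/- replicate 2 81.2% (76.8 to 85.0%). These intervals cover counting error only. Over the whole genome the order was the reverse, with 80.1% and 81.3% called in wt against 72.1% and 76.4% in Hox-/-. With lists of equal length (the 100000 strongest lines of each library), the genotypes were no longer apart over the genome, at 82.8% and 82.5% in wt against 81.8% and 83.5% in Hox-/-. The 195 regions of the stretch in those lists were called at 70.8% and 74.4% in wt and 86.7% and 88.7% in Hox-/-. The 2 Mb before the stretch followed the genome, with 77.7% and 80.7% against 71.0% and 73.3%. The 2 Mb after it, with 59 regions, showed no separation, with 69.5% and 81.4% against 79.7% and 74.6%.

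**Figure D1:**
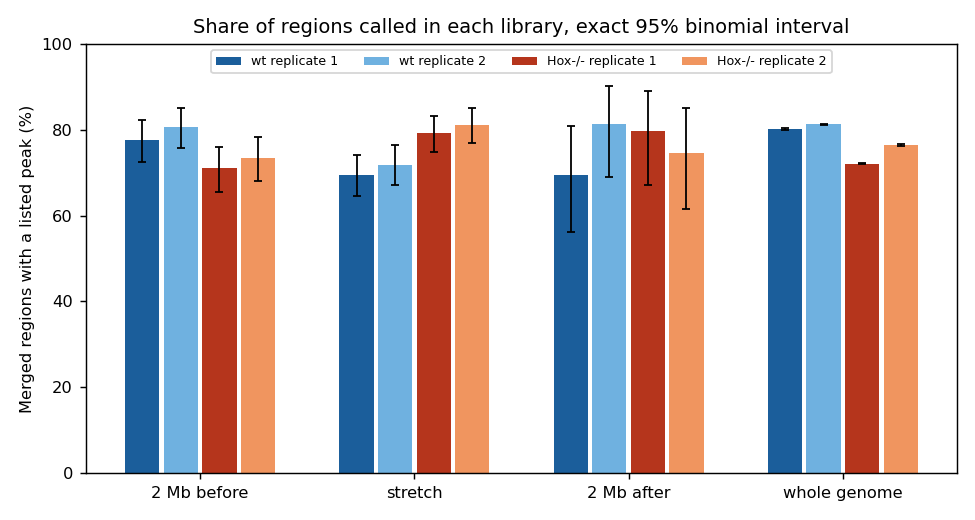
Share of merged regions with a listed peak (vertical axis, percent) in each of the 4 libraries, for the 2 Mb before the stretch (300 regions), the stretch (377), the 2 Mb after it (59) and the whole genome (208141); bars are single libraries and error bars exact 95% binomial intervals. In the stretch the Hox-/- bars, at 79.3% and 81.2%, stand above the wt bars, at 69.5% and 71.9%, and in the whole genome they stand below.

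Regions called in both Hox-/- libraries and in neither wt library numbered 16, or 4.24% of the stretch against 1.23% of all regions. The reverse pattern was found in 5 regions, or 1.33% against 3.84%. That count of 5 depended on the settings, with 1 among the 100000 strongest lines, 3 at a −log10 q of at least 5 and 10 with joined summits. Counting any call in 1 genotype with none in the other gave 76 regions on the Hox-/- side (20.2% against 9.1%) and 27 on the wt side (7.16% against 14.8%). The 16 regions were weak: their fold over the local background, the authors' own value, lay between 2.51 and 5.72 with a median of 3.63, and their median percentile in the Hox-/- lists was 81.7 and 75.5, where 100 is the weakest. None of the 16 lay within 1 kb of the end of a protein-coding gene, where 13.0% of the regions of the stretch and 11.5% of all regions lay. Between the 2 steps described later lay 14 of the 16, beside 348 of all 377 regions of the stretch.

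Peaks in the stretch were also wider in Hox-/-. The median covered width of the 213 shared regions was 519 and 520 bp in wt and 554 and 553 bp in Hox-/-, whereas over all 122749 shared regions it was 512 and 513 bp against 475 and 481 bp. In 51 regions both Hox-/- peaks were wider than both wt peaks (23.9%, with 9.66% over all shared regions), and in 26 both wt peaks were wider (12.2%, with 30% over all). The median log2 ratio of width, Hox-/- over wt, was 0.04 in the stretch and -0.06 over all shared regions. The value in the stretch was 0.019 without Hox-/- replicate 2, 0.025 without wt replicate 1 and 0.060 without wt replicate 2.

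To compare strength between lists of unequal depth, the 122749 regions called in all 4 libraries were ranked in each library by the −log10 p of their strongest peak, rank 1 being the strongest. The shift of a region is its mean log2 rank in wt minus that in Hox-/-, so a value above 0 means a higher rank in Hox-/- and a value of 1 a rank number divided by 2. The median shift over the 213 regions of the stretch was 0.36, with an interquartile range of 0.16 to 0.70. Taken separately, the 4 pairings of a wt with a Hox-/- library gave medians of 0.35 to 0.36. By contrast, the median difference between the wt replicates was -0.03 and that between the Hox-/- replicates -0.01. The median shift was 0.03 in the 2 Mb before, -0.04 in the 2 Mb after and 0.00 over all regions.

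The shift was above 0 in 186 of the 213 regions (87.3%, with 50.8% over all regions). Both Hox-/- libraries ranked a region above both wt libraries in 141 cases (66.2%, with 20.5% over all regions) and below both in 9 cases (4.23%, with 20.3% over all). In the 2 Mb before, 41 of 168 regions were higher and 39 lower, and in the 2 Mb after 5 of 32 were higher and 8 lower. Since the stretch was selected on these ranks, nothing beyond a description is read from the counts.

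A −log10 p joins the height of a peak to the level around it, and these were separated from the authors' fold and p. Under a Poisson model with a fold of (pileup + 1) / (background + 1), each line implies 1 summit pileup, the number of fragments stacked at the summit, and 1 local background. All implied pileups were within 0.05 of a whole number in every library. The lowest implied background was 7.46 and 7.02 in wt and 4.77 and 7.36 in Hox-/-, and between 32.6% and 33.9% of lines in each library were at that lowest value.

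Ranked by pileup, the shift in the stretch was larger than by p, with a median of 0.52. A total of 167 regions were higher in both Hox-/- libraries (78.4%, with 21.1% over all) and 2 were lower (0.94%, with 21.1% over all). Expressed as multiples of the lowest background of the library, the median pileup of the stretch was 10.2 and 10.96 in wt and 14.7 and 13.0 in Hox-/-. Over all shared regions the same medians were 10.9 and 11.2 in wt and 10.7 and 9.92 in Hox-/-. Reading each pileup rank as the pileup at that rank in wt replicate 1 gave a median shift of 0.50 log2 units in the stretch, a 1.41-fold difference, against 0.00 over all regions, 0.02 before and -0.05 after.

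Among the regions in which it could be ranked, the implied local background separated the genotypes most completely. It was above the lowest value of its library in all 4 libraries in 140 regions of the stretch, and ranked among 77611 such regions of the genome these had a median shift of 0.82. Both Hox-/- libraries ranked higher in 138 of the 140 (98.6%, with 23.7% over all) and both wt libraries in 1 (0.71%, with 25.1% over all). Background and pileup were solved from the same fold and p of each line, so these counts are not evidence separate from those by pileup. In multiples of the lowest background, the medians were 1.97 and 2.02 in wt and 2.94 and 2.82 in Hox-/-, against 2.12 and 2.17, and 2.13 and 2.01, over all. In a further 23 regions of the stretch the background was above the lowest value in both Hox-/- libraries and in neither wt library (10.8%, with 0.735% over all), and the reverse was found in 0 (with 0.993% over all).

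Ranked by the fold itself, pileup over background, the stretch hardly stood out. The median shift was 0.07, 58 regions were higher in both Hox-/- libraries (27.2%, with 21.3% over all) and 28 were lower (13.1%, with 18.9% over all). Median shifts by fold were 0.05 in the 2 Mb before and 0.01 over all regions. In the median, peak height and the level around it were thus both higher in Hox-/- in this stretch. Their median ratio was close to that in wt. The level could be ranked only in 140 regions, and the ratio was not even along the stretch. By fold, the median shift ran from -0.03 to 0.20 in the 500 kb bins with at least 20 regions. Bins 3, 6 and 7, of 4, 16 and 3 regions, had 0.42, 0.29 and 0.61. Bins 1, 2 and 11, of 5, 2 and 2 regions, had 0.02, -0.39 and 0.07.

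**Figure D2:**
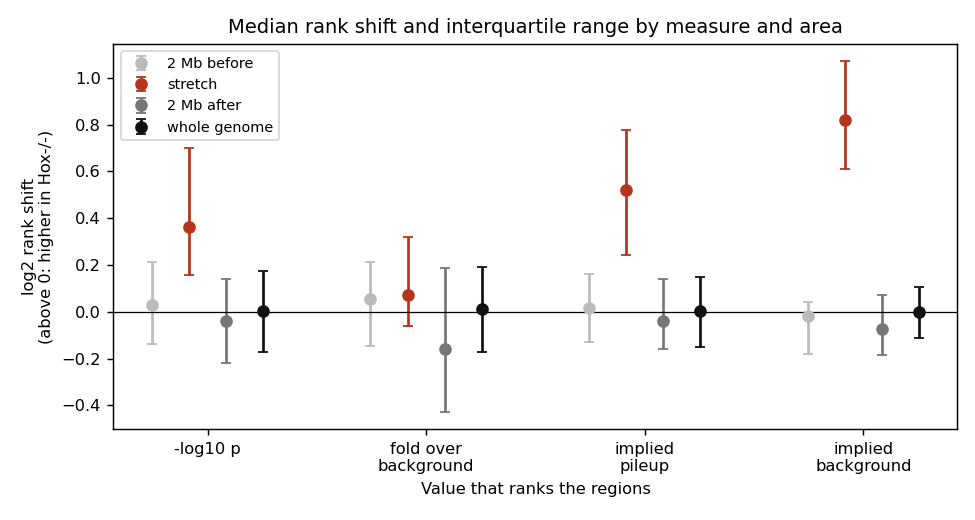
Median log2 rank shift (vertical axis; above 0 is higher in Hox-/-) for 4 ranking values (horizontal axis), in the stretch and the reference areas; points are medians over regions and bars interquartile ranges. In the stretch the medians are 0.36 by −log10 p, 0.07 by fold, 0.52 by pileup and 0.82 by background, and the reference areas stay near 0 apart from -0.16 by fold in the 32 regions after the stretch.

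The shift was found in strong and in weak regions. In the upper tercile of mean rank genome-wide, 88 regions of the stretch had a median shift of 0.70 by p, the 63 of the middle tercile 0.31 and the 62 of the lowest tercile 0.19. On the pileup scale the same medians were 0.52, 0.43 and 0.48, so the strongest tercile again had the highest median, with a much smaller gap to the others than by log2 rank and no steady fall towards the weakest. The 9 regions in the strongest 1% of the genome had a median shift of 2.06 in log2 rank and of 0.45 on the pileup scale. A log2 rank changes steeply at the top of a list, where few regions lie between 1 pileup value and the next.

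The shift did not begin and end at the borders of the chosen interval. A single step placed by least absolute deviation put the left change between positions 33648367 and 34204502, a gap of 556 kb that held no region called in all 4 libraries and 6 called in fewer. Both single Hox-/- libraries and both single wt libraries gave the same left step by p. By pileup the left step fell between 34213925 and 34279525, with Hox-/- replicate 1 alone between 34204897 and 34213552, and with wt replicate 2 alone at the gap found by p. The right step fell between 37762942 and 37782658, a gap of 19.7 kb near the olfactory receptor gene Olfr875. With Hox-/- replicate 1 alone it moved to between 38202902 and 38407301, and in each of the other 3 comparisons it stayed.

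The drop at the right edge was large between the regions on either side of the step, but not complete beyond it. The last region before the right step (chr9:37762401-37762942) had ranks of 27948 and 43426 in wt and 16540 and 20488 in Hox-/-, and the first region after it (chr9:37782658-37784274) 31945 and 36833 in wt and 35334 and 34582 in Hox-/-. In this pair of regions the groups did not overlap before the step and interleaved after it by p. By pileup, the region after the step ranked 38361 and 42693 in wt and 37734 and 37428 in Hox-/-, so both Hox-/- libraries were still higher there. The next region inward (chr9:37761567-37762125) overlapped, with 82791 and 78260 in wt and 92856 and 60948 in Hox-/- by p. Beyond the step, chr9:37932295-37932920 ranked 74188 and 64350 in wt and 29494 and 54158 in Hox-/-, a shift of 0.79, and chr9:38591080-38591456 had a shift of 0.61. Of the 10 regions before the right step all had a shift above 0, with a median of 0.38, and of the 10 after it 7 did, with a median of 0.10. The distance over which the running median of 15 regions went between 25% and 75% of the way from the outer to the inner median depended on the libraries used and fixed no width. On the right it was 891 kb with all libraries and 45.2 to 536 kb with 1 library of a genotype left out, and on the left 532 kb and 104 to 1857 kb.

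On the left, the last region before the gap (chr9:33647750-33648367) had ranks of 90708 and 79696 in wt and 88929 and 104982 in Hox-/-. The first region after it (chr9:34204502-34204897) had 104482 and 107837 in wt and 86312 and 80992 in Hox-/-. All 10 regions after the left step had a shift above 0, with a median of 0.48, and 5 of the 10 before it did, with a median of -0.07. By p, the left edge could not be placed more closely than the 556 kb gap. By pileup, the first and second regions after the gap had shifts of 0.25 and 0.24 and the third 1.10.

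**Figure D3:**
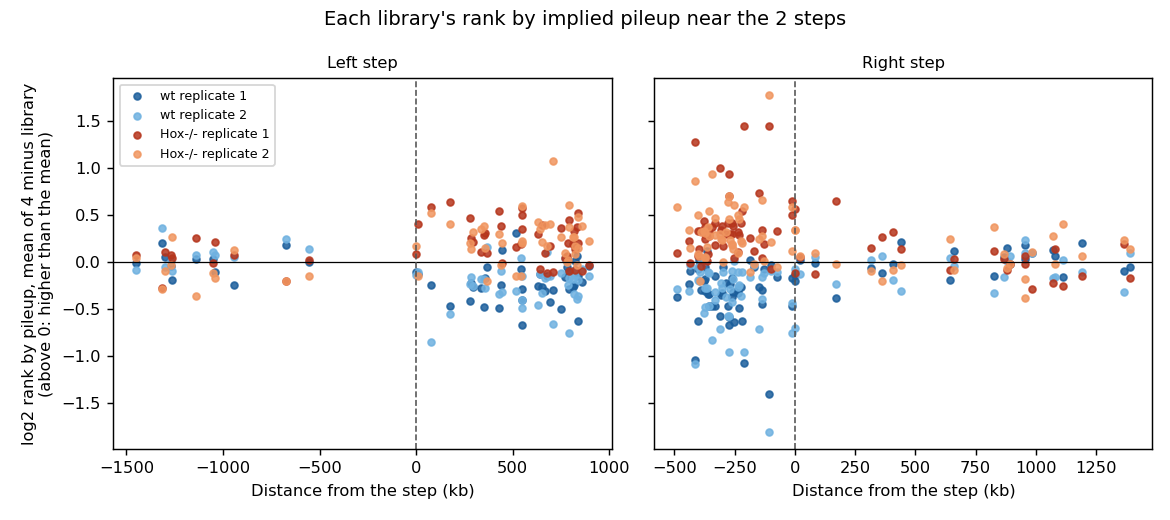
Rank by implied pileup of each library relative to the mean of the 4 (vertical axis, log2; above 0 is higher than the mean) against distance from the left and the right step (horizontal axis, kb); each point is 1 region in 1 library, with wt in blue and Hox-/- in red and orange. On the inner side of both steps the Hox-/- points lie mostly above 0 and the wt points below, and on the outer side the colours mix.

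Between the 2 steps lay 348 regions, 201 of them called in all 4 libraries, with a median shift of 0.37. The 7 shared regions of the interval before the left step had a median shift of -0.15, and the 5 after the right step 0.07. At the outer borders of the interval itself, the first shared region (chr9:32940153-32940908) had a shift of 0.33 and the last before the interval (chr9:32933218-32933660) 0.05. The last shared region of the interval (chr9:38125255-38126591) had 0.07 and the next one (chr9:38167941-38168753) 0.21.

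The median shift was above 0 in each 500 kb bin from bin 3 to bin 10, and its size varied. Bin 10 reaches past the right step and includes 3 regions after it. Of the bins counted from the start of the interval, 5 held at least 20 shared regions, and their medians were 0.44, 0.30, 0.47, 0.32 and 0.42 in chromosome order. On the pileup scale the same bins gave 0.55, 0.43, 0.61, 0.45 and 0.56. In these bins the medians of Hox-/- replicate 1 against the wt mean ran from 0.23 to 0.51 and those of Hox-/- replicate 2 from 0.30 to 0.46, while the wt replicates differed by -0.06 to 0.10. The smaller bins 3, 6 and 7, over 4, 16 and 3 regions, had medians of 0.66, 0.42 and 0.60. In 10 bins of equal numbers of regions the medians ran from 0.22 to 0.60, and the running median over 15 regions from 0.11 to 0.70 between the steps. Elsewhere on chromosome 9, over 2 Mb from the interval, it ranged from -0.31 to 0.30. Bins 1, 2 and 11, outside the steps, had medians of 0.04, -0.33 and 0.07 over 5, 2 and 2 regions.

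**Figure D4:**
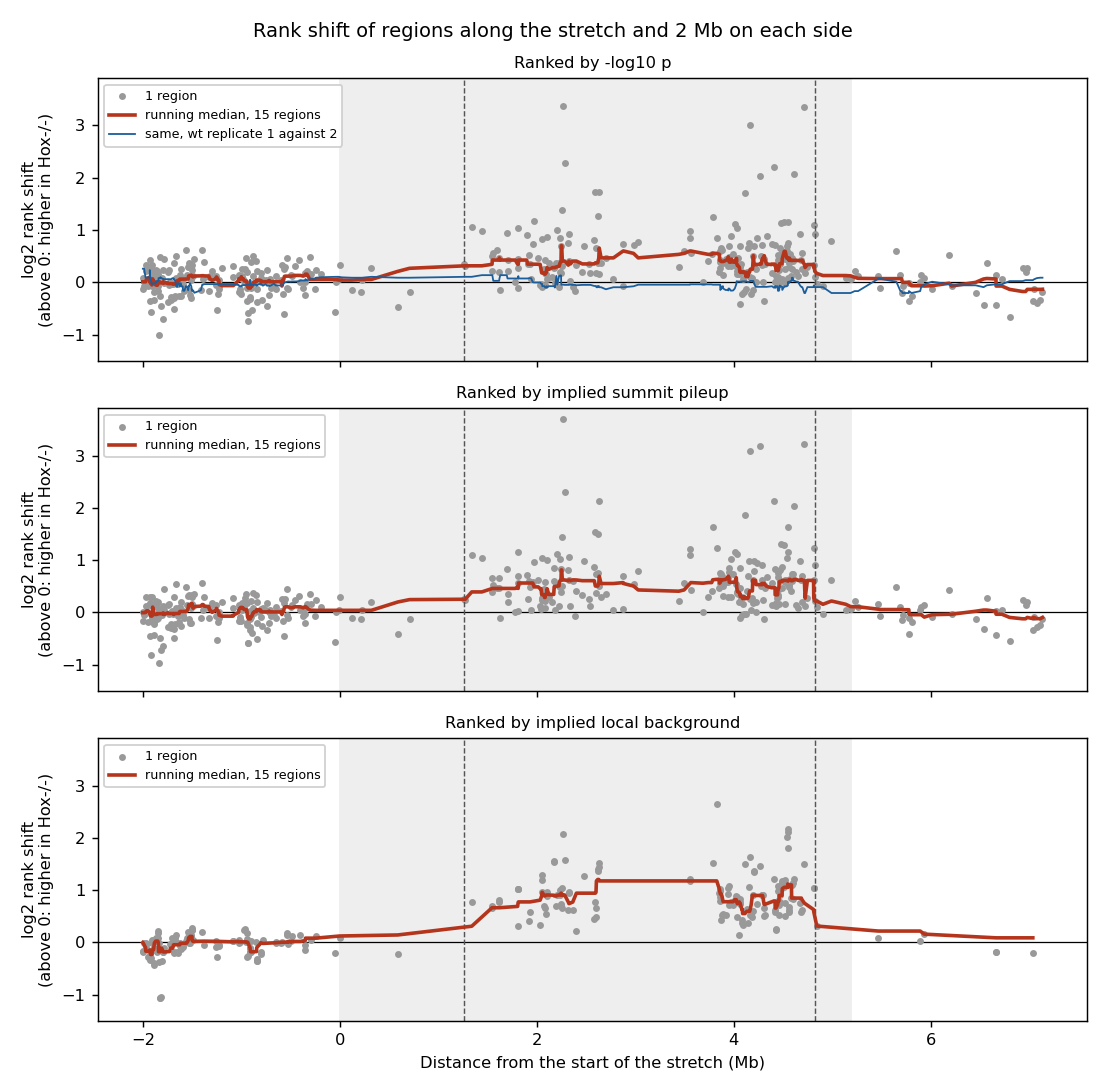
Log2 rank shift (vertical axis; above 0 is higher in Hox-/-) of each shared region against distance from the start of the interval (horizontal axis, Mb), ranked by −log10 p, by implied pileup and by implied background; grey shading marks the interval, dashed lines the 2 steps found by −log10 p, red the running median over 15 regions and blue the same for wt replicate 1 against 2. The red lines rise at the left step, stay above 0 and return towards 0 at the right step, and in the top panel the blue line stays between -0.21 and 0.14 in the interval.

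The interval held 63 protein-coding genes, of which 14 were olfactory receptor genes and 14 Pate genes, a family of small secreted proteins of the male reproductive tract. A region called in all 4 libraries lay within 1 kb of an end of 29 of these genes. There were 36 such regions, of which 31 were higher in both Hox-/- libraries by p and 0 lower (20.5% and 20.3% over all shared regions). Each gene is represented by the strongest region at its ends, which gives 25 distinct regions, since neighbouring genes can share a promoter. A weaker region at the other end of Dcps (chr9:35123944-35124452), for example, ranked 122130 and 104446 in wt and 119246 and 107822 in Hox-/-, and overlapped. By p, 26 of the 29 genes had both Hox-/- libraries above both wt libraries and 0 had the reverse. By pileup all 29 did. The shifts of the 29 ran from 0.06 to 3.37, with a median of 0.92, and on the pileup scale from 0.37 to 1.02, with a median of 0.53. In the 2 Mb before, 2 of 9 such genes were higher and 2 lower, and in the 2 Mb after 1 of 5 was higher and 2 lower.

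Of the genes listed under RNA handling, translation and secretion, 7 of 7 were higher in both Hox-/- libraries, at 5 distinct regions, beside 26 of 29 over all genes of the interval. The peak at Stt3a, a catalytic subunit of the oligosaccharyltransferase that attaches sugars to new proteins, was the strongest of the stretch (chr9:36767248-36768116). Its ranks were 22 and 21 in wt and 13 and 11 in Hox-/-, with no overlap between the groups. Its implied pileup was 1012 and 1015 fragments in wt and 1030 and 1501 in Hox-/-, before any allowance for the depth of the libraries, and its shift on the pileup scale was 0.48.

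The region with the largest shift by p in the stretch was the shared promoter of Foxred1, needed for assembly of mitochondrial complex I, and Srpr, the receptor subunit that docks ribosomes at the endoplasmic reticulum (chr9:35210540-35211669). Its ranks were 347 and 231 in wt and 25 and 30 in Hox-/-, a shift of 3.37, and 0.45 on the pileup scale. The authors' folds at this region were 18.7 and 19.7 in wt and 18.5 and 18.7 in Hox-/-, which did not separate the groups. The region at Ddx25, a testis RNA helicase, and Pus3, a pseudouridine synthase of tRNA, ranked 17725 and 23462 in wt and 7370 and 9596 in Hox-/-, a shift of 1.28 and of 0.87 on the pileup scale. The promoter of Dcps, the scavenger enzyme for mRNA caps, ranked 15137 and 17491 against 9276 and 8708. Rpusd4, a mitochondrial pseudouridine synthase, shares a region with Fam118b that ranked 16760 and 24798 in wt against 8220 and 14196 in Hox-/-.

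All 3 genes of checkpoint, cell death and DNA-linked functions were higher in both Hox-/- libraries, as were 26 of the 29 genes of the interval. The peak at Tbrg1, a nuclear regulator of growth, ranked 437 and 593 in wt and 58 and 43 in Hox-/-, a shift of 3.35 and of 0.48 on the pileup scale. Chek1, the kinase of the DNA replication checkpoint, ranked 5091 and 6501 against 2112 and 2761, a shift of 1.25. Ei24, a membrane protein linked to p53 responses and autophagy, ranked 46416 and 37685 against 27289 and 36922, a shift of 0.40. The wt and Hox-/- ranks of Ei24 came close, but did not overlap.

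Genes of the immunoglobulin superfamily and of axon guidance gave different pictures by p and by pileup. Of 7 genes, 6 had a shared region at an end, and in 3 of them both Hox-/- libraries ranked higher by p. Cdon, a coreceptor of Hedgehog signalling, ranked 21162 and 29072 in wt and 13330 and 17544 in Hox-/-. Kirrel3, a synaptic adhesion molecule, ranked 42022 and 35290 against 20576 and 21503, a shift of 0.87. Esam, an adhesion molecule of endothelial junctions, ranked 106890 and 116360 against 77574 and 89948. The region at Robo4 ranked 43600 and 35916 against 37413 and 30581, that at Robo3 117402 and 122573 against 119162 and 111559, and that at Vsig2 21932 and 14300 against 11400 and 15337. In these 3 the groups overlapped by p, with shifts of 0.23, 0.06 and 0.42, whereas by pileup all 6 genes were higher in both Hox-/- libraries. The median shift of the 6 was 0.42 by p and 0.65 on the pileup scale, beside 0.92 and 0.53 for all 29 genes.

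The other groups were smaller, and their counts too stand beside 26 of 29 for the interval. The glycan and transport genes St3gal4, a sialyltransferase, Slc37a2, a sugar-phosphate transporter, and Siae, a sialic acid esterase, were 3 of 3 higher among those with a shared region, with shifts of 0.28 to 0.92. Pknox2, a TALE homeodomain factor and the only homeodomain gene of the list in the interval, ranked 41994 and 39641 in wt and 23301 and 26923 in Hox-/-. Tirap, an adaptor of Toll-like receptors, ranked 5030 and 4592 against 1919 and 1755. The ciliary gene Hyls1 ranked 1773 and 1944 against 380 and 820. The neuronal genes Nrgn and Fez1 were both higher, with shifts of 2.06 and 0.61. Tmem218, a ciliary membrane protein, ranked 45 and 94 in wt and 15 and 17 in Hox-/-, and its folds were 24.8 and 25.4 against 25.6 and 24.4.

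**Figure D5:**
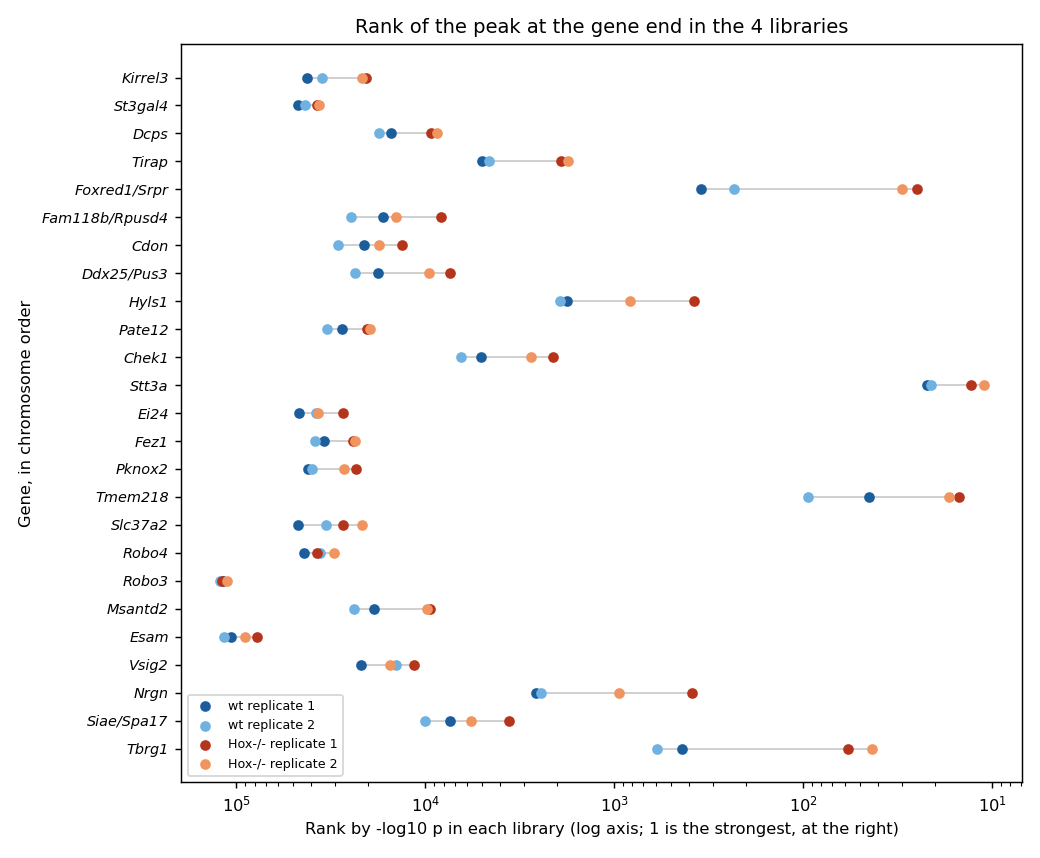
Rank by −log10 p (horizontal axis, log scale, with the strongest at the right) of the strongest shared region at an end of each gene of the interval (vertical axis, in chromosome order) in the 4 libraries; each point is 1 library and genes joined by a slash share 1 region. The Hox-/- points lie to the right of both wt points for all genes except Robo4, Robo3 and Vsig2.

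Sperm and olfactory genes contributed few members. Of 16 sperm genes 2 had a shared region at an end, Spa17, which shares its promoter with Siae, and Pate12, and both were higher in Hox-/-. Pate12 ranked 27614 and 33247 in wt and 20373 and 19619 in Hox-/-. Of the 14 olfactory receptor genes of the interval, 2 of which lay between the steps, 2 had a peak at an end in any library and 0 in all 4. In the 2 Mb after, 3 of 79 olfactory receptor genes had a shared region, of which 1 was higher and 1 lower.

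Gene ends were not the only places that shifted. The 36 shared regions of the stretch within 1 kb of a gene end had a median shift of 0.63 and the 177 others 0.33, against 0.02 and 0.00 over all regions. The difference of 0.31 between them was 0.20 without Hox-/- replicate 1 and 0.41 without Hox-/- replicate 2. It was 0.17 with a gene-end window of 2.5 kb and 0.03 when ranked by fold. On the pileup scale the medians were 0.56 and 0.48, a difference of 0.08. Kirrel3, whose body spans 34485853 to 35040807, held 33 shared regions with a median shift of 0.34, of which 22 were higher in both Hox-/- libraries. Pknox2, from 36890979 to 37147342, also held 33, with a median of 0.32 and 20 higher. These counts lie near the 66.2% of the whole stretch, with 20.5% over all shared regions. The annotation used gives gene bodies without exons, so regions inside a gene could not be placed in exons or introns.

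Among single regions away from gene ends, 1 inside Pknox2 (chr9:37106710-37107680) ranked 1263 and 606 in wt and 80 and 146 in Hox-/-, a shift of 3.02 and of 0.42 on the pileup scale. A region inside Fam118b, 6290 bp from the end of Srpr (chr9:35223293-35224063), ranked 14739 and 15321 against 3823 and 2507, a shift of 2.28. Its shift on the pileup scale was 1.10, and its fold was also higher, at 14.1 and 14.99 in wt and 15.9 and 17.1 in Hox-/-. A region inside Ccdc15 (chr9:37347668-37348758) ranked 2234 and 2353 against 431 and 571, a shift of 2.21.

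The strongest distal region of the stretch (chr9:35305129-35305684), 29172 bp from Rpusd4, did not separate the genotypes. Its ranks were 58 and 242 in wt and 215 and 74 in Hox-/-, so the groups overlapped, with a shift of -0.09. Its folds were 31.3 and 30.3 in wt and 27.6 and 27.8 in Hox-/-. By pileup its ranks were 538 and 1212 in wt and 892 and 316 in Hox-/-, which also overlapped.

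The regions lower in Hox-/- had small shifts. The largest was at chr9:33528232-33529097, before the left step, with ranks of 7680 and 6879 in wt and 9885 and 10271 in Hox-/-, a shift of -0.47. Next came 4 regions between the steps, 3 inside Pknox2 and 1 inside Slc37a2. Of these, chr9:37006243-37006708 ranked 68727 and 60808 in wt and 96029 and 77034 in Hox-/-, a shift of -0.41, and its shift by pileup was -0.11. The region at chr9:37117445-37118192 had a shift of -0.22 by p and of 0.04 by pileup, with folds of 13.1 and 14.1 in wt and 10.6 and 11.3 in Hox-/-.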

How the data were processed

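The data are 4 peak lists, 1 per ATAC-seq library and 2 per genotype. Per the submitters' processing notes, cutadapt 4.8, Bowtie2 2.5.0, Picard 2.18.2, bedtools 2.30.0, MACS2 2.2.9.1, deepTools 3.5.4 and the build mm10 were used, and their roles and settings are not given in the sources used here. Each deposited line holds a fold over the local background, a −log10 p and a −log10 q, as the authors' peak caller gave them, and a deposited whole-number score that was not used. The lowest −log10 q was 1.30 in every list. Read depth is not in the lists, so strength was compared mainly by ranks and by multiples of each library's lowest background. Calls (apart from those in lists of equal length), widths, folds and the pileups printed for Stt3a were not adjusted for depth.

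Lines of the 4 lists overlapping by at least 1 bp were merged with Python 3.11.15 (pandas 2.3.3, numpy 2.4.6, scipy 1.17.1), and the strongest line represented a library. The code for ranks, implied pileups and steps was run on simulated lists made with the same formulas. That checks the code only, and cannot show that the formulas hold for the deposited lists. Genes and promoters are from RefSeq (GRCm38.p6); the gene table gives no strand, so both ends count. The members, gene lists and named regions were chosen with earlier results of these data known; named regions are the 5 strongest, the 5 with the largest shift each way among those separating the genotypes, and those at the edges. Implied pileup and background, and the steps, were added after values were seen. No test was made, because the interval was chosen from these ranks; an exact permutation test of 2 against 2 libraries could not go under 0.05 in any case. Alternatives were ranking by fold or percentile, a −log10 q of at least 5, summits joined within 250 bp, the 100000 strongest lines, other windows and bins, leaving out each library, and a replicate block.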

Additional observations from a re-analysis of the deposited data

How the results depend on the processing

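No median over the stretch changed sign under any alternative tried, which carries no support because the interval was chosen from these ranks. Of 207 recomputed values 145 stayed within the spread between replicates, or within 1.5 times for a count. Another 59 moved further and 3, at single regions, reversed. A change of sign within the spread counted as staying. The region at chr9:35305129, for example, had a shift of 0.94 without wt replicate 1 and -1.12 without wt replicate 2. Ranked by fold, the median shift was 0.071 and 58 regions were higher and 28 lower in both Hox-/- libraries, the difference between gene ends and other regions was 0.032, and the left and right midpoints of the shift moved to 32.45 and 38.65 Mb from 33.39 and 37.81 Mb. Ranked by implied pileup, the median was 0.52, 2 regions were lower, the left midpoint was 34.25 Mb, and on the pileup scale the difference at gene ends was 0.077; ranked by background, the median was 0.82 and 1 region was lower. The percentile of each library's own list gave a median of 0.30. A window of 7 regions put the left midpoint at 32.37 Mb and the least-deviation step at 33.93 Mb, so the left midpoint is poorly fixed. With 10 bins of equal numbers of regions, the range between bins was 0.38, against 0.17, and a gene-end window of 2.5 kb gave a difference of 0.17, against 0.31. Regions called in wt alone were 3 at the stricter q, 10 with joined summits and 1 among the strongest lines, and Hox-/- replicate 2 then called 87.7% of regions at the stricter q (77.6% genome-wide). Among the strongest lines, Hox-/- replicates 1 and 2 called 86.7% and 88.7% of the stretch and 81.8% and 83.5% genome-wide, and the wt replicates 70.8% and 74.4% against 82.8% and 82.5%, so the lower Hox-/- share over the genome was not seen at equal list length. By fold, the promoters of Tmem218 and Foxred1 had shifts of -0.049 and -0.090, and the region at chr9:37117445 had 0.041 by pileup. Leaving out each library gave a median shift of 0.34 to 0.36, 18 to 24 regions lower, 29 to 48 called in Hox-/- alone and 11 to 18 in wt alone (fewer libraries must then concur), a width difference of 0.019 to 0.060 (0.019 to 0.025 without wt replicate 1, or Hox-/- replicate 2), a left midpoint of 32.58 to 34.24 Mb, a right midpoint of 37.76 to 38.15 Mb, a range between bins of 0.15 to 0.30 (without Hox-/- replicate 2), a difference at gene ends of 0.20 (without Hox-/- replicate 1) to 0.41, and medians of 0.47 to 0.53 by pileup and 0.81 to 0.86 by background. With a replicate block the median was 0.36, 155 regions were higher, and the midpoints were 32.74 and 38.10 Mb; replicate numbers did not pair the samples (r = 0.004 over 122749 regions). Read depth is not in the lists and limits what weak regions show.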
